A study of Mus musculus with 6 samples.

Results

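The smooth muscle contractile genes followed here were Myh11, Actg2, Lmod1, Smtn, Acta2, Tagln, Cnn1, Synpo2, Mylk and Myocd, which are 10 of the 45792 genes in a table of read counts from whole embryonic mouse hearts. Each was found by its symbol, joined to the count table by the gene identifier, and all 10 passed the filter on low counts. From general knowledge they were placed in a group of 4 genes largely restricted to smooth muscle (Myh11, Actg2, Lmod1 and Smtn) and a group of 6 that embryonic cardiomyocytes also express (Acta2, Tagln, Cnn1, Synpo2, Mylk and Myocd). In hearts labelled as endothelial Ino80 mutants, Myh11, Actg2 and Lmod1 were each low in all 3 hearts, at or below 1.03 CPM (reads per M counted reads), while control-labelled hearts ranged up to 5.22 CPM, although control replicate 1 lay within the mutant-labelled range for each. Cnn1 and Synpo2 were higher in every mutant-labelled heart than in every control-labelled heart, as were 14.3% of all 17125 tested genes. Values of the other 8 genes, Acta2 and the regulator Myocd among them, overlapped between the groups. No difference passed an adjusted p of 0.05 with edgeR, the main test, and those of Cnn1, Synpo2, Myh11 and Actg2 passed it with DESeq2. Of the 16614 genes to which DESeq2 gave an adjusted p, 2.67% passed as higher and 3.43% as lower.

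The hearts came from embryos at embryonic day 13.5, 3 labelled wild-type and 3 labelled Tie2Cre INO80 flox/flox, all on C57BL/6 per the labels. The study describes controls as every genotype other than Tie2Cre;Ino80 fl/fl and its mice as of mixed background. Its methods state that controls were littermates and that embryos of both sexes were used without being typed, and the labels do not give the litter or sex of each heart. Tie2 drives Cre in endothelial and endocardial cells and in what descends from them, including much of the cushion mesenchyme, so Ino80, the catalytic subunit of a chromatin remodelling complex, was not targeted in cardiomyocytes or in most vascular smooth muscle cells. Whole hearts were sequenced, and the labels do not say how much of the aorta and pulmonary trunk stayed on each heart.

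Smooth muscle cells contract when calcium and calmodulin switch on myosin light chain kinase, which phosphorylates myosin and lets it pull on actin filaments. The genes of this apparatus share control by serum response factor and its coactivator myocardin, which act through a DNA element called the CArG box. In the embryonic heart, smooth muscle surrounds the great vessels and begins to form around coronary arteries, and young cardiomyocytes switch on several of the same genes for a time, Acta2 and Tagln among them.

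Between 28948836 and 89675692 reads were counted per heart, and the deepest library was mutant replicate 1. Values are CPM scaled by TMM, which adjusts each library total for composition. Differences are log2 fold changes of mutant-labelled over control-labelled hearts, with their standard error (SE), from edgeR's quasi-likelihood test over 17125 genes, and adjusted p-values use the Benjamini-Hochberg method over all of them. The level of Ino80 did not separate the genotypes, at 30.2, 31.6 and 32.7 CPM in control replicates 1 to 3 and 36.5, 33.7 and 31.8 CPM in mutant replicates 1 to 3, so hearts are named by their labels. These counts cover the whole gene in all cells of the heart, whereas the study's floxed allele removes a single exon in Tie2 cells. The study reports that Ino80 mRNA was undetectable by quantitative PCR in endothelial cells isolated from mutant hearts. In RNA from whole hearts, fewer cells of a type and less RNA per cell cannot be told apart.

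To place the genes beside each other, levels were divided by the length of each gene's merged exons (CPM per kb). On this scale Acta2, smooth muscle alpha-actin, stood far above the rest in control-labelled hearts, with a mean level of 503 CPM per kb and a range of 457 to 583. Cnn1, Tagln, Myocd, Smtn and Synpo2 followed with mean levels of 58.0, 28.7, 23.2, 12.4 and 4.13 CPM per kb. Actg2, Mylk, Myh11 and Lmod1 came last, with mean levels of 1.77, 1.43, 0.365 and 0.252 CPM per kb. Neighbours in this order did not overlap across the 3 control-labelled hearts, except Tagln with Myocd, Actg2 with Mylk and Myh11 with Lmod1. In mutant-labelled hearts the first 6 genes kept their order, Mylk stood above Actg2, and Lmod1 and Myh11 overlapped at the bottom, with mean levels of 0.0925 and 0.0678 CPM per kb. Merged exons count every isoform, so the levels of Synpo2 and Mylk, whose merged exons span 13089 and 11263 bases, are low estimates.

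**Figure D1:**
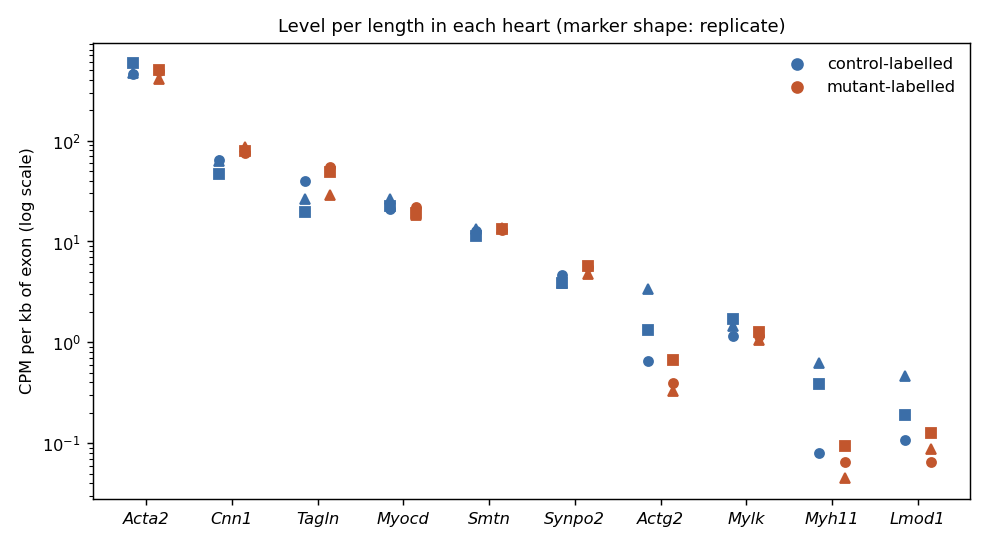
Level of each smooth muscle contractile gene per length of its merged exons (CPM per kb, log axis) in each of the 3 control-labelled and 3 mutant-labelled hearts. Acta2 stands highest at 409 to 583 CPM per kb in all 6 hearts, and Myh11 and Lmod1 stand lowest, below 1 CPM per kb.

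Paralogs that do related work in other cells stood on both sides of the smooth muscle forms. Acta2 lay above Acta1, skeletal alpha-actin, whose mean levels were 73.7 and 92.2 CPM per kb in control-labelled and mutant-labelled hearts. The mean level of Actc1, cardiac alpha-actin, was 4889 CPM per kb in control-labelled and 4433 CPM per kb in mutant-labelled hearts. Cnn1, at 58.0 and 80.6 CPM per kb, was near its nonmuscle relative Cnn2, at 68.9 and 83.1 CPM per kb. The nonmuscle myosin heavy chain Myh10 had a mean level 103 times that of Myh11 per kb in control-labelled hearts and 672 times in mutant-labelled hearts. The cardiac kinase Mylk3 stood 58.4 and 61.95 times above Mylk per kb in the control-labelled and mutant-labelled hearts.

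The 4 muscle actins encode nearly the same protein, so the values for Acta2 and Actg2 depend on reads being told apart by base differences. The stretch below is the end of each coding sequence, the last 90 bases before the stop codon, taken from GENCODE vM21 transcripts and shown 5′ to 3′ to let the differences be seen. Capitals mark bases that differ from Acta2.
Acta2: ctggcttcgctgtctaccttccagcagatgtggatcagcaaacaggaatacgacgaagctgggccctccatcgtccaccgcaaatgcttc
Actg2: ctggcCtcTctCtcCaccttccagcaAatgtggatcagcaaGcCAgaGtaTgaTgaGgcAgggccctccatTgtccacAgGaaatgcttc
Actc1: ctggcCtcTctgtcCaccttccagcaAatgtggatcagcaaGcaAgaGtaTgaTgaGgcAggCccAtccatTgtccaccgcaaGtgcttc
Acta1: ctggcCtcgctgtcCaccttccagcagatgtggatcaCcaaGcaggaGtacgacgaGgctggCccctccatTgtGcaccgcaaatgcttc
Over this stretch Actg2, Actc1 and Acta1 differed from Acta2 at 16, 15 and 9 bases. Over 1128 aligned coding bases Actg2 and Acta2 were 83.8% identical. No window of 76 bases, the read length, was shared between the Actg2 transcript and those of Acta2, Acta1, Actc1, Actb or Actg1 (0 of 1198 windows). The longest run shared with Acta2 was 29 bases and that with Actc1 was 38 bases. Of 6375 such windows of Myh11, 0 occurred in Myh9 or Myh10, though the longest run shared with each was 65 bases. Reads of these lengths from Actg2 and Myh11 thus had no identical counterpart in the paralogs compared.

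Among the restricted genes, Myh11, Actg2 and Lmod1 showed one pattern across the hearts. They were present but scarce in control-labelled hearts, most abundant in control replicate 3, and lowest or near lowest in the mutant-labelled hearts. Smtn did not share it.

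Myh11 encodes the smooth muscle myosin heavy chain, the motor of the contractile filament and the most specific marker of mature smooth muscle. The gene (ENSMUSG00000018830) is on the minus strand, chromosome 16 from 14194535 to 14291372 (coordinates here are those of GENCODE vM21 on GRCm38). It had 23, 87 and 154 reads in control replicates 1 to 3, or 0.604, 2.96 and 4.75 CPM, and 46, 30 and 10 reads in mutant replicates 1 to 3, or 0.497, 0.705 and 0.342 CPM. Control replicates 2 and 3 stood above the other 4 hearts, and control replicate 1 lay within the range of the mutant-labelled hearts. Mean levels were 2.77 ± 2.08 CPM for the control label and 0.515 ± 0.182 CPM for the mutant label (SD, n = 3 each). The log2 fold change was -2.40 (SE 0.66, 95% confidence interval -3.92 to -0.88, edgeR adjusted p = 0.13), which does not pass the threshold of 0.05.

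Actg2, smooth muscle gamma-actin, is the actin of the gut, bladder and parts of the vessel wall (ENSMUSG00000059430, minus strand, chromosome 6 from 83512905 to 83536265). It had 39, 60 and 169 reads in control replicates 1 to 3, or 1.02, 2.04 and 5.22 CPM, and 57, 44 and 15 reads in mutant replicates 1 to 3, or 0.616, 1.03 and 0.513 CPM. Control replicate 3 stood alone at the top, and control replicate 1 and mutant replicate 2 were nearly equal, so the groups overlapped slightly. Actg2 had a log2 fold change of -1.93 (SE 0.58, 95% confidence interval -3.26 to -0.60, edgeR adjusted p = 0.15).

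Lmod1, leiomodin 1, nucleates actin filaments in smooth muscle (ENSMUSG00000048096, plus strand, chromosome 1 from 135324807 to 135368065). It was the scarcest of the 10 by CPM, with 16, 22 and 59 reads in control replicates 1 to 3, or 0.420, 0.749 and 1.82 CPM, and 24, 21 and 10 reads in mutant replicates 1 to 3, or 0.260, 0.494 and 0.342 CPM. Mutant replicate 2 lay above control replicate 1, and control replicate 3 was again the highest. Lmod1 had a log2 fold change of -1.47 (SE 0.56, 95% confidence interval -2.75 to -0.18, edgeR adjusted p = 0.21).

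The spread of these 3 genes was far wider among control-labelled than among mutant-labelled hearts. The highest control-labelled heart held 7.87 times the Myh11 CPM of the lowest, 5.09 times the Actg2 CPM and 4.33 times the Lmod1 CPM. Among mutant-labelled hearts these ratios were 2.06, 2.02 and 1.90. Which control-labelled hearts entered the fit set the size of the difference: without control replicate 3 the log2 fold changes were -1.75 for Myh11, -1.07 for Actg2 and -0.69 for Lmod1, and without control replicate 1 they were -2.88, -2.33 and -1.85. Without control replicate 1, edgeR called Myh11 (adjusted p = 0.010) and Actg2 (adjusted p = 0.039) lower.

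Smtn encodes smoothelin, an actin-binding protein of contractile smooth muscle (ENSMUSG00000020439, minus strand, chromosome 11 from 3517523 to 3540612). It was at 55.5, 49.9 and 57.9 CPM in control replicates 1 to 3 and at 57.3, 58.2 and 59.4 CPM in mutant replicates 1 to 3. The 6 hearts were close together and the groups overlapped, with a log2 fold change of 0.10 (SE 0.08, 95% confidence interval -0.08 to 0.27, edgeR adjusted p = 0.49). At a control mean level of 12.4 CPM per kb, Smtn was well above the other restricted genes on the per-length scale, which is not the level its grouping with them would give. Of its merged exons, 16.3% are covered by Gm11946 on the other strand, which had 49 reads in all 6 hearts together.

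**Figure D2:**
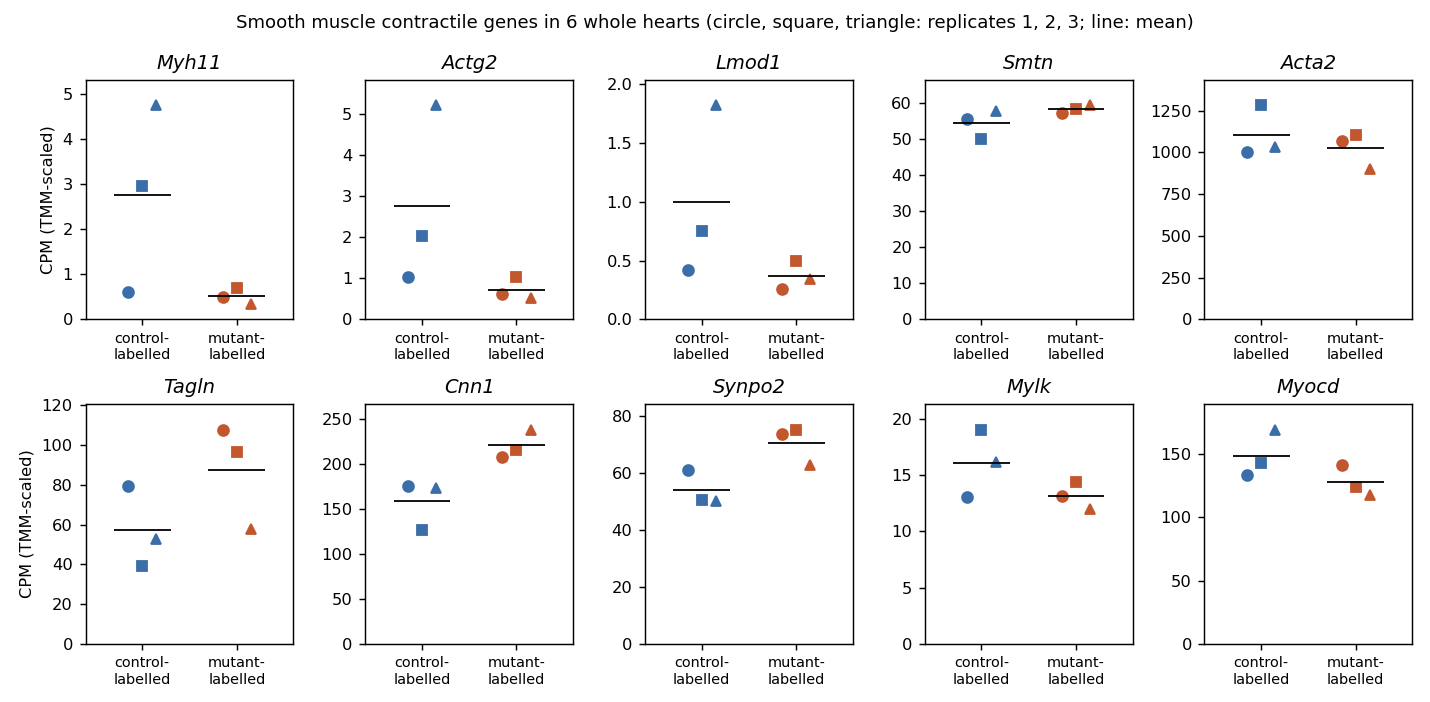
CPM of each smooth muscle contractile gene in each control-labelled and mutant-labelled heart, 1 panel a gene, with marker shapes for replicates and a line at the group mean (n = 3). Myh11, Actg2 and Lmod1 are spread out in control-labelled hearts and gathered low in mutant-labelled hearts, while Cnn1 and Synpo2 stand higher in all 3 mutant-labelled hearts.

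The genes that cardiomyocytes also express were measured from far more reads than Myh11, Actg2 and Lmod1 and differed by smaller amounts than these 3. Cnn1 and Synpo2 had no overlap between the groups, Tagln had its highest values in 2 of the mutant-labelled hearts, and Acta2, Mylk and Myocd differed by less than 0.30 on the log2 scale.

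Cnn1 encodes calponin 1, which binds actin and slows the myosin motor (ENSMUSG00000001349, plus strand, chromosome 9 from 22099216 to 22109630). It was at 175.8, 126.4 and 173.6 CPM in control replicates 1 to 3 and at 208.1, 215.9 and 237.9 CPM in mutant replicates 1 to 3. Every mutant-labelled heart exceeded every control-labelled heart. The log2 fold change was 0.48 (SE 0.13, 95% confidence interval 0.18 to 0.78, edgeR adjusted p = 0.13), and it was 0.34 without control replicate 2, the lowest heart.

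Synpo2, synaptopodin 2 or myopodin, bundles actin at the Z-disc and in smooth muscle (ENSMUSG00000050315, minus strand, chromosome 3 from 123076519 to 123236149). It was at 61.2, 50.6 and 50.3 CPM in control replicates 1 to 3 and at 73.7, 75.3 and 62.8 CPM in mutant replicates 1 to 3. The groups did not overlap, though control replicate 1 and mutant replicate 3 were close. The fitted log2 fold change was 0.39 (SE 0.11, 95% confidence interval 0.14 to 0.63, edgeR adjusted p = 0.13), and without control replicate 1 it was 0.49 and edgeR called it higher (adjusted p = 0.044).

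Tagln encodes transgelin, also called SM22-alpha, an actin-associated protein that appears early in smooth muscle and in the embryonic heart (ENSMUSG00000032085, minus strand, chromosome 9 from 45929619 to 45936058). It was at 79.4, 38.9 and 52.9 CPM in control replicates 1 to 3 and at 107.7, 96.6 and 57.9 CPM in mutant replicates 1 to 3. Mutant replicate 3 lay among the control-labelled hearts. The log2 fold change was 0.62 (SE 0.29, 95% confidence interval -0.04 to 1.28, edgeR adjusted p = 0.28), ranging from 0.41 without control replicate 2 to 0.93 without control replicate 1. Of the merged exons of Tagln, 62.4% are covered by the antisense transcript Gm48529 and 5.43% by Pcsk7 on the other strand. The study counted reads on an earlier GENCODE release than the one used for these overlaps. Pcsk7 was counted, but no count was found for Gm48529, and a gene that was not counted could not take reads from Tagln. The setting for strand and overlap used in counting is not named, so reads where Tagln and Pcsk7 overlap could have been lost or shared.

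Acta2 (ENSMUSG00000035783, minus strand, chromosome 19 from 34241090 to 34255590) was at 1003, 1281 and 1029 CPM in control replicates 1 to 3 and at 1068, 1102 and 899 CPM in mutant replicates 1 to 3. The groups overlapped. Acta2 had a log2 fold change of -0.11 (SE 0.13, 95% confidence interval -0.40 to 0.18, edgeR adjusted p = 0.65), and it was 0.011 without control replicate 2, the highest heart. Its level did not follow that of Actg2, and mean Acta2 per kb was 284 times mean Actg2 for the control label and 1006 times for the mutant label.

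Mylk encodes myosin light chain kinase of smooth muscle and nonmuscle cells (ENSMUSG00000022836, plus strand, chromosome 16 from 34745210 to 35002420). It was at 13.1, 19.1 and 16.2 CPM in control replicates 1 to 3 and at 13.2, 14.4 and 11.96 CPM in mutant replicates 1 to 3. Control replicate 1 lay within the mutant range. Mylk had a log2 fold change of -0.29 (SE 0.15, 95% confidence interval -0.63 to 0.05, edgeR adjusted p = 0.32). At a control mean level of 1.43 CPM per kb, a low estimate, Mylk overlapped Actg2 and was below the other shared genes on the per-length scale. That is not the level its grouping with them would give.

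Myocd encodes myocardin, the coactivator that drives the contractile genes in smooth muscle and is also made by cardiomyocytes (ENSMUSG00000020542, minus strand, chromosome 11 from 65176561 to 65269989). It was at 133.7, 143.1 and 169.5 CPM in control replicates 1 to 3 and at 141.2, 123.8 and 118.2 CPM in mutant replicates 1 to 3. The highest mutant-labelled heart lay between the lowest and the middle control-labelled heart. The fitted log2 fold change was -0.22 (SE 0.11, 95% confidence interval -0.47 to 0.03, edgeR adjusted p = 0.30).

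Set against all genes, edgeR called 0 of the 10 genes in either direction (adjusted p under 0.05), as it did of all 17125 tested genes (0% in each direction). At an unadjusted p under 0.05, 2 of the 10 were higher (Cnn1 and Synpo2) against 9.48% of all tested genes, and 3 were lower (Myh11, Actg2 and Lmod1) against 9.98%. DESeq2, run as an alternative, called 2 higher at an adjusted p under 0.05, Cnn1 (adjusted p = 0.014) and Synpo2 (adjusted p = 0.037), against 2.67% of the 16614 genes for which it gave an adjusted p. It called 2 lower, Myh11 (adjusted p = 0.0020) and Actg2 (adjusted p = 0.0085), against 3.43%. All 3 mutant-labelled hearts stood above all 3 control-labelled hearts in 2 of the 10 genes, against 14.3% of tested genes, and below them in 0 of the 10, against 12.8%.

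**Figure D3:**
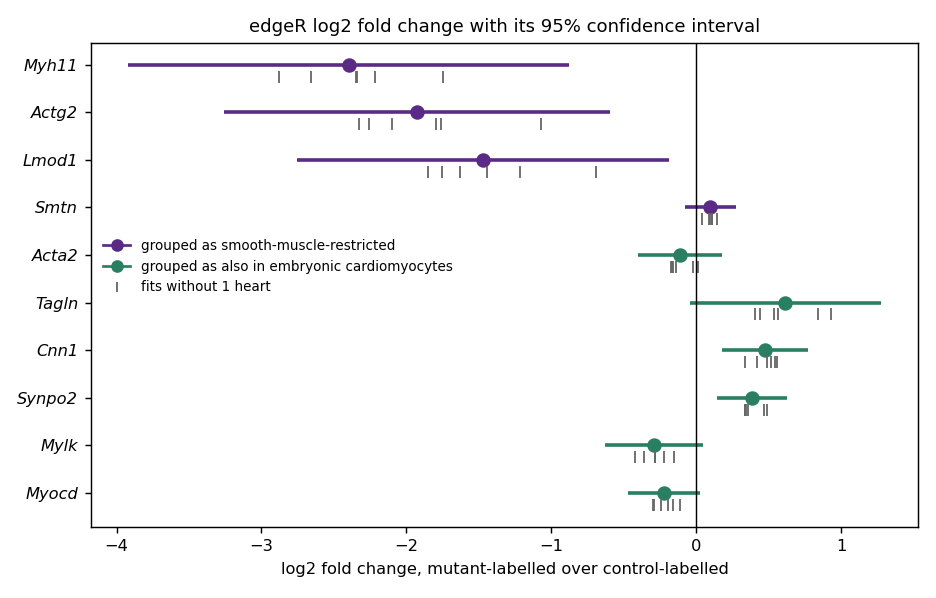
Log2 fold change of each smooth muscle contractile gene, mutant-labelled over control-labelled hearts, with its 95% confidence interval from edgeR (n = 3 hearts a group) and small ticks for the 6 fits without 1 heart. The intervals of Myh11, Actg2 and Lmod1 lie below 0 and are the widest, those of Cnn1 and Synpo2 lie above 0, and the other 5 cross 0.

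The restricted genes had a median log2 fold change of -1.70 and the genes shared with cardiomyocytes one of 0.14, beside -0.0017 over all tested genes. Of the 4 restricted genes 3 were lower at an unadjusted p under 0.05 and DESeq2 called 2 of them lower, whereas of the 6 shared genes 2 were higher by either count and 0 were lower. Over all genes the shares lower were 9.98% unadjusted and 3.43% by DESeq2, and the shares higher were 9.48% and 2.67%. The first median rests on Myh11, Actg2 and Lmod1, since Smtn differed by 0.10, and on control replicate 3, without which it was -0.88. The genes were few and grouped from general knowledge, and the difference between the groups of genes was not tested.

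Heart by heart, the gap between both kinds of gene was widest in the mutant-labelled hearts and in control replicate 1. Medians were taken of log2(CPM + 0.5), and the added 0.5 narrows the gap most where the scarce genes are lowest. The median of Myh11, Actg2 and Lmod1 minus that of the 6 shared genes was -6.55, -4.99 and -4.18 in control replicates 1 to 3. In mutant replicates 1 to 3 the difference was -6.96, -6.51 and -6.69. On this measure control replicate 1 lay within the mutant-labelled range, just below mutant replicate 2, and control replicates 2 and 3 stood above all other hearts. These 3 genes were picked out after Smtn had been seen to behave otherwise.

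Across the 6 hearts, Pearson's r of log2(CPM + 0.5) with Myh11 was 0.963 for Actg2 and 0.931 for Lmod1. It was 0.864 for Mylk, 0.841 for Myocd and 0.505 for Acta2. It was -0.446 for Smtn, -0.679 for Tagln, -0.721 for Cnn1 and -0.825 for Synpo2. These are descriptions over 6 points that share their genotype labels. Mylk and Myocd thus varied with the scarce genes but over a much smaller range, their highest heart being 1.59 and 1.43 times their lowest, against 13.9 times for Myh11.

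Of the 431 tested genes that averaged 1 CPM or more and whose highest heart was at least 4 times the lowest, the 10 most like Myh11 were Mlph, Gdf10, Rbp7, Actg2, Plin4, Zbtb16, C3, Myom2, Bst1 and Npas2, with r from 0.977 to 0.941 over the 6 hearts. Actg2 ranked 4, and Lmod1 was below the level required. Myom2, which encodes the M-band protein myomesin 2 of striated muscle, was the most abundant of them at 18.5, 42.0 and 90.3 CPM in control replicates 1 to 3 and 9.74, 7.69 and 7.86 CPM in mutant replicates 1 to 3. Its groups did not overlap, and its order among the control-labelled hearts was that of Myh11. Plin4, a lipid droplet coat protein, was at 1.497, 4.22 and 8.86 CPM in control replicates 1 to 3 and 0.714, 0.447 and 0.513 CPM in mutant replicates 1 to 3. Of the 10 genes most like Myh11, Actg2 was the only one in the lists of smooth muscle genes used here.

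The DNA ahead of the start of transcription was available from RefSeq (GRCm38.p6) for 6 of the 10 genes, Lmod1, Smtn, Acta2, Cnn1, Synpo2 and Mylk. The exact CArG box was in the 250 bases before the start of 0 of these 6 and in 1.47% of 32851 promoters, both strands searched. A looser form, with 1 C or G allowed in its A/T core, was in 8.59% of all promoters and, of the 6, in Acta2 alone, which held CCCTATATGG beginning 84 bases and CCTTGTTTGG beginning 34 bases before the RefSeq start. GENCODE vM21 places the first exon of Acta2 farther upstream, so both matches lie within the gene coordinates given above. The stretches ahead of Cnn1 (chr9:22099003-22099215, plus strand, 213 bases) and Synpo2 (chr3:123236150-123236399, minus strand, 250 bases), the pair whose groups did not overlap, are shown 5′ to 3′ and end just before the first annotated exon.
Cnn1: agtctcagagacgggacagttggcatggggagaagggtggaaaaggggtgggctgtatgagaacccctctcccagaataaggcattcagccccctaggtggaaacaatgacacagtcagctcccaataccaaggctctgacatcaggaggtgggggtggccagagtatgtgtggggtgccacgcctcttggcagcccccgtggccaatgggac
Synpo2: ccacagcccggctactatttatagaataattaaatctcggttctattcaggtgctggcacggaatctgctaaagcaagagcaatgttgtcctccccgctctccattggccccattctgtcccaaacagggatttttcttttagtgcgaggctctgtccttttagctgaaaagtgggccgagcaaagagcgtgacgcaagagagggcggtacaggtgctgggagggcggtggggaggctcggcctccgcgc
The absence of a match says only that these letters are not in this window.

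Other genes of the smooth muscle filament and cytoskeleton, 26 in a list compiled from general knowledge, did not share a direction. Of these 16 were higher and 10 lower, with a median log2 fold change of 0.07, and edgeR called 0 of them at an adjusted p under 0.05. Without adjustment, 3 were higher at p under 0.05 and 3 lower. DESeq2 calls numbered 2 higher (Tpm2 and Cnn2) and 1 lower (Hspb6). Hspb6, the small heat shock protein HSP20 of muscle, was at 78.1, 99.5 and 92.3 CPM in control replicates 1 to 3 and 50.6, 50.7 and 56.9 CPM in mutant replicates 1 to 3, with no overlap. Its log2 fold change was -0.77 (SE 0.10, edgeR adjusted p = 0.065). Tpm2, beta-tropomyosin, and Cnn2, calponin 2, had log2 fold changes of 0.29 and 0.27, both with no overlap between the groups. Pdlim7, a PDZ and LIM protein of actin filaments, had a log2 fold change of 0.45, and Tns1, tensin 1, one of -0.30.

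Regulators of smooth muscle, 26 genes covering serum response factor and its partners, TGF-beta, PDGF and Notch signalling and transcription factors of smooth muscle precursors, were divided as well, with 12 higher and 14 lower and a median of -0.02. edgeR called 0 at an adjusted p under 0.05, and without adjustment 3 were higher at p under 0.05 and 4 lower. DESeq2 calls numbered 1 higher and 2 lower, the latter Prrx1 and Heyl. Prrx1, a homeobox factor of mesenchyme, had a log2 fold change of -0.52 (SE 0.08, edgeR adjusted p = 0.065), and Heyl, a Notch target of smooth muscle, also one of -0.52 (SE 0.14, edgeR adjusted p = 0.13). Tgfbr1, a TGF-beta receptor, and Gata6, a transcription factor of smooth muscle, had log2 fold changes of 0.29 and -0.30. Srf, the partner of myocardin, named here for that role after its values were seen, was at 154.8, 201.5 and 203.3 CPM in control replicates 1 to 3 and 182.0, 178.1 and 218.7 CPM in mutant replicates 1 to 3. Its groups overlapped, with a log2 fold change of 0.05 (SE 0.13, edgeR adjusted p = 0.85).

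Markers of other cells and tissues in the sample were read beside these genes. Arterial wall matrix genes, which smooth muscle of large arteries lays down, had 3 of 9 higher and 6 lower, with a median log2 fold change of -0.29 and a summed level of 507 to 950.2 CPM in control-labelled and 470.2 to 538 CPM in mutant-labelled hearts. Without adjustment 1 was higher at p under 0.05 and 4 were lower, and 2 were lower by DESeq2, Mgp and Fbln5. Eln, elastin, was at 101.2, 110.8 and 342.2 CPM in control replicates 1 to 3 and 66.0, 60.7 and 57.8 CPM in mutant replicates 1 to 3, and Fbln5, the elastic fibre protein fibulin 5, at 28.0, 25.3 and 66.3 CPM and 18.0, 12.3 and 14.8 CPM. Both stood lower in every mutant-labelled heart, and both were highest by far in control replicate 3, the heart with the most Myh11, Actg2 and Lmod1. Their log2 fold changes were -1.59 and -1.40, with edgeR adjusted p = 0.13 and 0.12. Mgp was at 44.3, 52.7 and 51.0 CPM in control replicates 1 to 3, so it was not highest in control replicate 3. In mutant replicates 1 to 3 it was at 30.2, 15.3 and 30.9 CPM. The 3 higher genes were Emilin1, Fbn1 and Mfap4, with log2 fold changes of 0.29, 0.18 and 0.009. Of these, Emilin1 was higher in every mutant-labelled heart. The part of great vessel wall in the difference of the restricted genes was not tested.

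Pericyte markers, 8 of 10 of them tested, had 1 higher and 7 lower, a median of -0.26 and a summed level of 342 to 518 CPM in control-labelled and 296 to 320.1 CPM in mutant-labelled hearts. Without adjustment 0 were higher at p under 0.05 and 3 were lower, and DESeq2 called these 3 and Higd1b, which had too few reads for the edgeR fit, lower. Rgs5, a regulator of G protein signalling that marks pericytes, was at 44.2, 99.95 and 100.8 CPM in control replicates 1 to 3 and 12.8, 11.05 and 16.1 CPM in mutant replicates 1 to 3, a log2 fold change of -2.62 (SE 0.31, edgeR adjusted p = 0.065). Its groups did not overlap, and control replicate 1 was the lowest of its group, as it was for Myh11. Ndufa4l2 and Kcnj8, both enriched in pericytes, had log2 fold changes of -1.24 and -0.74. The part of these cells in the difference of the restricted genes was not tested.

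**Figure D4:**
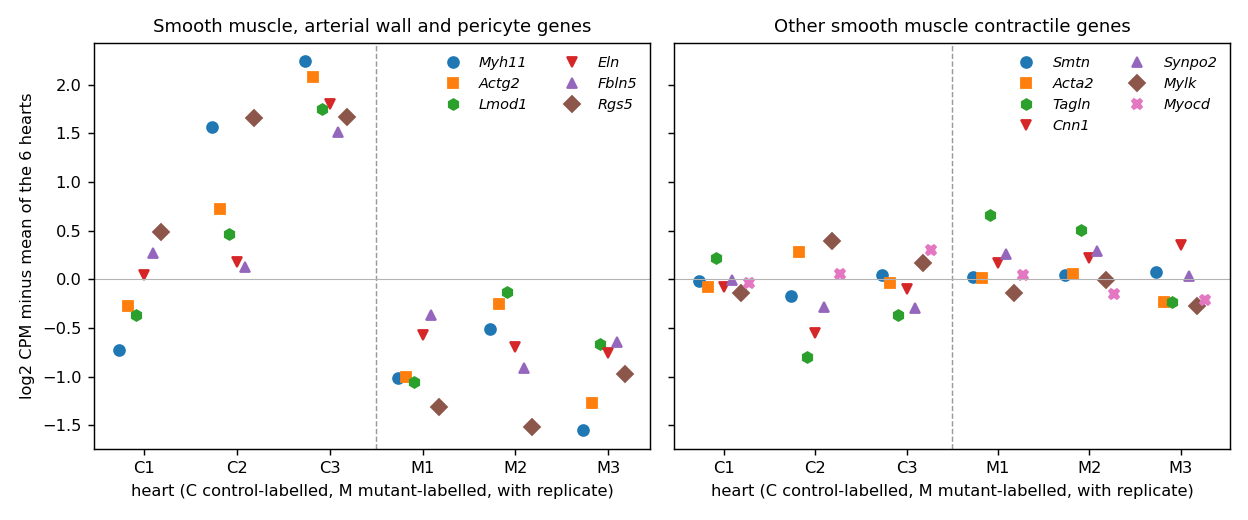
Log2 CPM of each gene in each heart (C control-labelled, M mutant-labelled, with replicate number) minus that gene's mean over the 6 hearts. On the left, Myh11, Actg2 and Lmod1 stand highest in control replicate 3, as do Eln, Fbln5 and Rgs5, and in control replicate 1 the 3 contractile genes sit below 0, while on the right the other 7 contractile genes vary less.

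Cardiomyocyte markers, which share their cells with the second group of genes, had 4 of 15 higher and 11 lower, a median of -0.18, and a summed level of 31582 to 38331 CPM in control-labelled and 31335 to 33253 CPM in mutant-labelled hearts. Without adjustment 3 were higher at p under 0.05 and 2 were lower, and by DESeq2 3 were higher and 1 was lower. The 3 that DESeq2 called higher, Myl7, Myl4 and Myh6, are known for their abundance in atrial muscle, with log2 fold changes of 0.69, 0.30 and 0.48, and Pln, phospholamban, known for its abundance in the ventricle, had one of -0.54. Cnn1 and Synpo2 stood in the same direction as the first 3, and the part of cardiomyocyte makeup in their values was not tested.

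Markers of the epicardium and fibroblasts had 6 of 10 higher and 4 lower, a median of 0.04, and summed levels of 1247 to 1759 CPM and 1221 to 1623 CPM in control-labelled and mutant-labelled hearts. Without adjustment 1 was higher at p under 0.05 and 2 were lower, as with DESeq2. Dpt, the matrix protein dermatopontin, had the largest difference of the list, a log2 fold change of -1.89 (SE 0.27, edgeR adjusted p = 0.065). Postn, the other lower gene, had one of -0.43 (SE 0.09, edgeR adjusted p = 0.085). Upk3b, the higher gene, had one of 0.57 (SE 0.12, edgeR adjusted p = 0.083), with no overlap between the groups.

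Markers of tissue next to the heart were scarce in all 6 libraries, at summed levels like those of Myh11 and Actg2 themselves. Of 13 markers of foregut and lung epithelium 3 were tested, with a summed level of 1.92 to 3.09 CPM in control-labelled and 2.02 to 2.455 CPM in mutant-labelled hearts. Nkx2-1 and Shh, which define that epithelium, had 0 reads in every heart, and Sftpc and Foxa1 had 1 read each in all. Of 8 markers of foregut mesenchyme, the source of airway and gut smooth muscle, 2 were tested, with summed levels of 2.55 to 5.03 CPM and 3.51 to 5.55 CPM, and Hoxb6 and Nkx6-1 had 0 reads. Skeletal muscle markers (2 of 7 tested) summed to 2.71 to 4.07 CPM and 2.16 to 4.75 CPM, and liver markers (3 of 8 tested) to 2.36 to 4.26 CPM and 1.85 to 2.63 CPM, with Fgb at 0 reads in every heart. In these 4 lists edgeR called 0 genes at an adjusted p under 0.05, with 1 gene, Hoxa5, at an unadjusted p under 0.05 (higher), and DESeq2 called 0. Too scarce for the edgeR fit, and named after their values were seen, were 3 markers of foregut mesenchyme and liver with more reads in control-labelled hearts. Foxf1, a forkhead factor of foregut and lung mesenchyme, had 7, 9 and 20 reads in control replicates 1 to 3, or 0.184, 0.306 and 0.617 CPM, and 8, 3 and 3 reads in mutant replicates 1 to 3, or 0.0865, 0.0705 and 0.103 CPM. Its groups did not overlap, and its order among the control-labelled hearts was that of Myh11. Alb, albumin of the liver, had 0, 12 and 12 reads in control replicates 1 to 3 and 0, 1 and 0 reads in mutant replicates 1 to 3, and Afp, the fetal liver protein alpha-fetoprotein, 2, 24 and 12 reads and 3, 7 and 0 reads. Epcam and Cdh1, equally scarce epithelial markers also named after their values were seen, went in opposite directions. Epcam had 5, 0 and 2 reads in control replicates 1 to 3 and 31, 10 and 3 reads in mutant replicates 1 to 3. Cdh1 had 1, 12 and 5 reads in control replicates 1 to 3 and 4, 2 and 1 reads in mutant replicates 1 to 3. The groups overlapped in CPM for both genes. Both tested genes of foregut mesenchyme, Hoxa5 and Wnt2, were higher, with log2 fold changes of 0.83 and 0.31. The part of neighbouring tissue in the difference of the restricted genes was not tested.

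**Figure D5:**
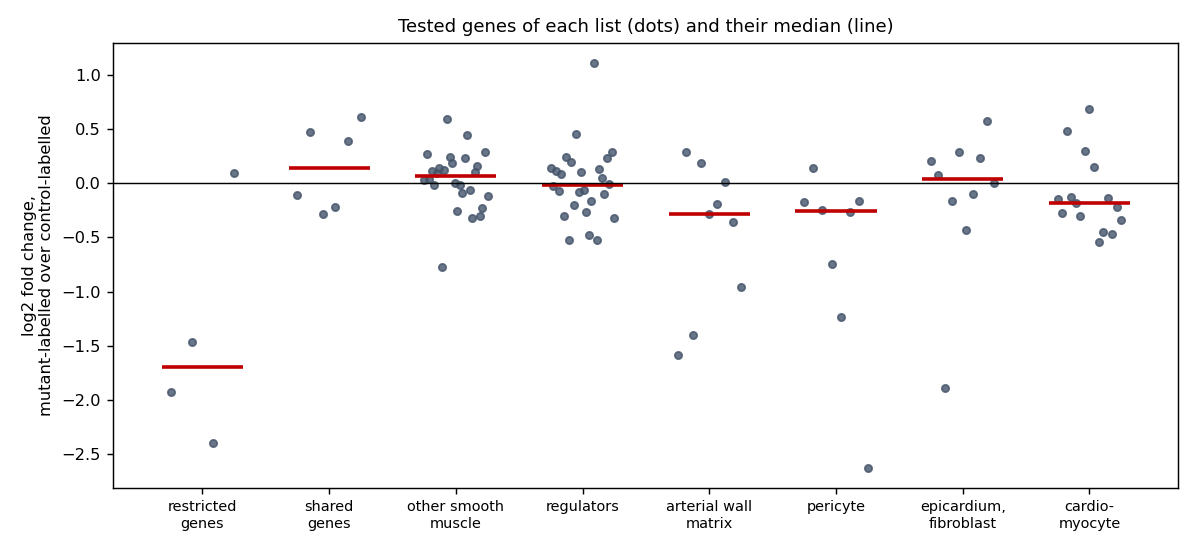
Log2 fold change of each tested gene, mutant-labelled over control-labelled hearts, for 8 of the gene lists, with a line at the median of each. The restricted genes have the lowest median of these 8 lists, -1.70, while the lists of other smooth muscle genes and of regulators spread to both sides of 0.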

How the data were processed

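RNA from 6 whole hearts (3 a group) was sequenced as 76 bp paired-end reads. The authors mapped reads to GRCm38 with STAR 2.4.2a and deposited raw read counts per gene from summarizeOverlaps, without normalization. The overlap and strand settings are not given in the sources used here. A second deposited table holds the authors' mean normalized signal per gene, which gave gene symbols and a check of the joining (recomputed means matched those of the 10 genes). Its columns of log2 fold changes, standard errors and p-values were not used.

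Counts were fitted in R 4.3.3 with edgeR 4.0.16 (filterByExpr with minimum count 10 and minimum total 15, TMM, quasi-likelihood, condition as the only term), with an adjusted p threshold of 0.05. Variation between hearts beyond counting (common biological coefficient of variation 0.153) limited precision for genes with many reads. Standard errors were taken from the F statistic. The steps were tested on simulated data. Labels call the samples biological replicates, and each embryo heart counted as 1.

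Genes, groups and lists (other smooth muscle genes, regulators, cardiomyocyte, pericyte, epicardium and fibroblast, arterial wall matrix, foregut and lung epithelium, foregut mesenchyme, skeletal muscle, liver) were chosen with earlier results of these data known. Named were the 10 genes, up to 5 genes of each list with the smallest unadjusted p, list genes at 0, Ino80, 10 genes most like Myh11, paralogs and overlapping genes. Some other list genes were named after their values were seen. Of the regulators, 1 gene is not reported here. Lengths and coordinates came from GENCODE vM21 and promoters from RefSeq. Other settings tried were DESeq2 1.42.0, RLE scaling, 2 other low-count filters, random thinning of every library to the smallest total, fits without each heart in turn, a replicate block, and an adjusted p under 0.1.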

Additional observations from a re-analysis of the deposited data

How the results depend on the processing

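The number of calls depended on the filter on low counts, the test, the threshold and the hearts in the fit. At an adjusted p under 0.05 edgeR called 0 higher and 0 lower, also among genes of at least 1 CPM in at least 3 hearts. DESeq2 called 443 higher and 570 lower of all genes, with 2 of the 10 contractile genes higher and 2 lower. It was fitted to 28298 genes and gave an adjusted p for 16614, so the test and the filter changed together. With all genes of at least 1 count kept, edgeR called 262 higher and 341 lower, with Cnn1 as the 1 contractile gene higher and Myh11 and Actg2 as the 2 lower. An adjusted p under 0.1 gave 195 higher and 214 lower, with 0 contractile genes. In fits without 1 heart, calls ran from 0 to 320 higher and 0 to 431 lower over all genes, and from 0 to 1 higher and 0 to 2 lower of the contractile genes. The highest numbers came without control replicate 1, and 3 genes were lower without control replicate 2.

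The median log2 fold change of the restricted genes ran from -2.09 to -0.88 in fits without 1 heart (lowest in size without control replicate 3). It was -0.91 among genes of at least 1 CPM in at least 3 hearts, where Myh11 and Lmod1 were not tested. The median of the shared genes ran from 0.086 to 0.20 without 1 heart. Acta2 alone turned direction, with values from -0.17 without control replicate 1 to 0.011 without control replicate 2. Of the other values of single genes, 107 kept their direction and side of the threshold and 10 kept their direction and passed it.

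Same-numbered hearts had correlations of their deviations of 0.020, -0.092 and -0.073, which gave no sign that replicate numbers pair the hearts. With 3 hearts a group and litters not given, these values cannot exclude pairing. With the replicate block, 1 gene was higher and 13 were lower, none of them contractile, and the restricted median was -1.41. The restricted genes rest on few reads (10 to 169 a heart for Myh11, Actg2 and Lmod1), and thinning to the smallest total gave log2 fold changes of -2.40, -2.12 and -1.90 for them.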
